A study of Mus musculus with 16 samples.

Results

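The Notch genes described here were chosen by name as 3 receptors (*Notch1*, *Notch2* and *Notch3*), 1 ligand (*Jag1*) and 4 genes that Notch signalling turns on (*Hes1*, *Hey1*, *Heyl* and *Nrarp*), which makes 8 of the 30451 genes in the count table. Levels were read in droplet-based single-cell RNA sequencing (Chromium 3′ chemistry, v3) of dissociated whole testes at P2. Mice were wild type or carried a germ cell-specific *Ddx5* knockout, made by crossing *Ddx5* flox/flox mice with *Mvh*-Cre, a Cre driven by a germ cell promoter. An *Oct4*-GFP reporter marks germ cells, and the GFP and CRE sequences were part of the table. The labels listed 8 sequencing libraries per genotype over 2 lanes each, but the barcodes carried only 1 suffix per genotype, so each genotype was 1 library and no difference between genotypes could be tested. All intervals below are 95% intervals and cover counting error only.

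In Notch signalling, a ligand on one cell binds a receptor on its neighbour, the receptor is cut, and its intracellular part enters the nucleus and joins RBPJ to turn on genes of the *Hes* and *Hey* families. These encode basic helix-loop-helix repressors, while *Nrarp* is both a target and an inhibitor of the pathway. In the fetal testis, Notch keeps interstitial progenitors from becoming Leydig cells. In Sertoli cells, the somatic cells that enclose the germ cells, Notch answers to JAG1 from germ cells and restrains *Gdnf* and *Cyp26b1*. *Notch3* is best known in mural cells of blood vessels.

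After barcodes with under 2000 genes or over 10% mitochondrial UMIs (unique molecular identifiers, 1 per captured transcript) were left out, 6329 cells of the wild type remained beside 4950 of the library that is labelled *Ddx5* knockout, with medians of 11170 and 11668.5 UMIs. The deletion check went against the label. In germ cells *Ddx5* was at 1152 counts per 1e+06 UMIs (CPM) in the wild type, and the library labelled knockout had 1736 CPM, a ratio of 1.51 (1.40–1.62). The deleted exons are not given in the sources used here, and 3′ tags outside them would not see the deletion. Germ cells gave 0 CRE UMIs in the wild type, whereas the library labelled knockout gave 20. No file pairs the suffixes with genotypes, so these were assigned from the cell numbers that the study gives. Both libraries shared 12 barcode sequences.

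Cells were gated on marker UMIs. The Sertoli gate (at least 3 *Amh* UMIs) held 2256 cells in the wild type and 1635 in the library labelled knockout, the Leydig gate (at least 20 UMIs of *Cyp11a1*, *Cyp17a1* and *Hsd3b1* together) held 177 and 143, and the peritubular myoid gate (at least 5 *Acta2* and 2 *Myh11* UMIs) held 764 and 524. The stroma gate (a *Pdgfra* UMI and at most 2 *Amh* UMIs) held 3590 and 3005 cells, and the germ gate (at least 3 of *Dazl*, *Ddx4*, *Mael* and *Stk31*) held 125 and 12, or 1.98% and 0.242% of kept cells. All 8 Sertoli markers and all 6 Leydig markers were highest in their own gate in both libraries. This ranking was over 8 gates, these 5 and endothelial-like, pericyte-like and macrophage-like gates. The others were less clear, with 3 of 6 myoid, 5 of 6 stroma and 3 of 4 germ markers highest in their own gate in the wild type. In the library labelled knockout these were 5 of 6, 6 of 6 and 4 of 4. Wild-type *Cnn1* and *Actg2* (11.3 and 20.7 CPM in myoid cells) were higher only in pericyte-like cells (14.6 and 24.4 CPM). Wild-type *Mael* (344 CPM in germ cells) was higher only in endothelial-like cells (359 CPM). The gates were not exclusive. Of the myoid cells, 89.4% also passed the stroma gate, so below "stroma" in a level compared between gates leaves out its myoid and Leydig cells (2875 and 2500 cells remain), and values of the whole gate are named as those of the stroma gate. Of the germ cells, 28.5% also passed the Sertoli gate, and in wild-type germ cells the Sertoli markers summed to 1493 CPM, against 79.9 CPM in the 12 germ cells of the other library.

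The somatic gates differed in which Notch genes they carried. *Heyl* was highest in myoid cells, *Jag1* in Leydig cells, *Nrarp* and *Notch1* in Sertoli cells, and *Notch2*, *Notch3* and *Hes1* in myoid and stromal cells. These gates were the same in both libraries. Both *Jag1* and *Heyl*, 2 of the 8 genes, stood at least 2-fold above the next somatic gate in both libraries on the CPM + 10 scale, with 2.34 and 2.27 for *Jag1* and 2.24 and 2.25 for *Heyl*. These folds use the whole stroma gate. With stroma outside the myoid and Leydig gates they were 2.41 and 2.27 for *Jag1* and 3.46 and 3.19 for *Heyl*. With the whole gate, 4.73% of 19495 genes did so. With barcodes passing exactly 1 gate *Jag1* no longer did, and with a pseudocount of 50 CPM neither gene did.

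**Figure D1:**
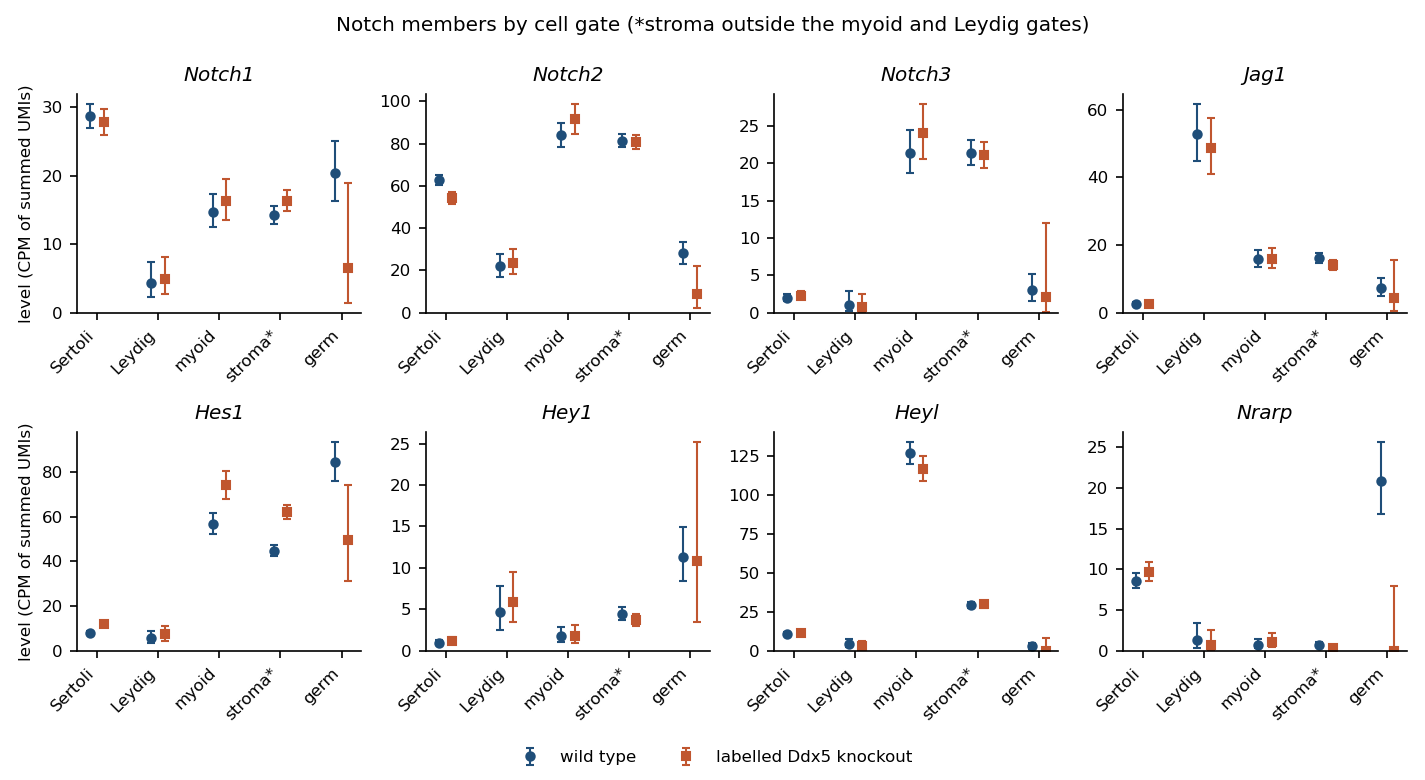
Level (CPM, vertical axis) of each of the 8 Notch genes in 5 cell gates (horizontal axis), with stroma drawn without its myoid and Leydig cells, in the wild-type library and the library labelled *Ddx5* knockout. Points are CPM of summed UMIs and bars are 95% Poisson intervals; *Heyl* stands out in myoid cells (127 and 117 CPM) and *Jag1* in Leydig cells (52.8 and 48.7 CPM), while the germ gate of the library labelled knockout rests on 12 cells and has wide bars.

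Among the receptors, *Notch1* (chr2:26457903-26516663, minus strand, GRCm38) was highest in Sertoli cells, at 28.7 CPM (27.0–30.5) in the wild type and 27.8 CPM (25.9–29.8) in the library labelled knockout. It was 2.02 (1.80–2.27) and 1.70 (1.51–1.92) times its level in stroma, where it reached 14.2 and 16.3 CPM. Myoid cells, at 14.7 and 16.3 CPM, could not be set apart from stroma in either library. Leydig cells had the least *Notch1* of the somatic gates, at 4.32 and 4.87 CPM from 13 and 14 UMIs. These levels were 1.94 and 2.68 CPM without called doublets and 2.61 and 1.65 CPM with barcodes passing no other gate.

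*Notch2* (chr3:98013527-98150361, plus strand) had another order. Its levels were 83.9 and 91.4 CPM in myoid cells, 81.4 and 80.7 CPM in stroma, and 62.7 and 54.3 CPM in Sertoli cells. Stroma stood 1.30 (1.23–1.38) and 1.49 (1.39–1.59) times above Sertoli cells. The step from stroma to myoid cells was smaller, at 1.03 (0.952–1.12) in the wild type and 1.13 (1.04–1.24) in the library labelled knockout. Leydig cells were again low, at 21.9 and 23.7 CPM, so that myoid cells exceeded them by 3.83 and 3.86 times.

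*Notch3* (chr17:32120820-32166852, minus strand) was shared by myoid cells, at 21.4 CPM (18.7–24.5) and 24.0 CPM (20.5–27.9), and stroma, at 21.3 and 21.1 CPM, whose folds of 1.005 (0.857–1.17) and 1.14 (0.955–1.36) held 1. Sertoli cells had 2.00 and 2.28 CPM, and myoid cells stood 10.7 and 10.5 times above them. The Sertoli level differed between the ways of leaving out mixed barcodes, at 0.193 and 0.308 CPM without called doublets but 1.59 and 2.22 CPM with barcodes passing no other gate. A *Notch3* UMI was found in 19.8% and 19.6% of stroma-gate cells and in 2.79% and 3.18% of Sertoli cells. Thinned to 5000 UMIs per cell, these shares were 9.90% and 10.4% in the stroma gate and 0.671% and 0.858% in Sertoli cells. In Leydig cells, the lowest gate, 1.69% and 1.40% had a UMI, or 0.565% and 0.704% after thinning.

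Since *Notch3* is known from vascular mural cells, pericyte markers were read in the same gates. The 6 pericyte markers summed to 75.6 and 81.4 CPM in myoid cells and to 352 and 397 CPM in the 21 and 11 pericyte-like cells. In myoid cells *Rgs5* was at 0.20 and 0 CPM, *Abcc9* at 13.9 and 15.6 CPM and *Cspg4* at 52.2 and 58.98 CPM. Pericyte-like cells had 41.5 CPM (24.2–66.4) and 75.1 CPM (43.7–120.2) of *Notch3*, from 17 UMIs each. The name of this gate is weak, since endothelial markers summed to more than pericyte markers there (400.4 and 954 CPM), myoid markers to 3532 and 2353 CPM, stroma markers to 1167 and 2137 CPM, Sertoli markers to 1787 CPM in the wild type and germ markers to 534 CPM in the library labelled knockout. In stroma the 6 pericyte markers summed to 62.8 and 64.8 CPM, most of it from *Cspg4* (52.6 and 57.9 CPM), with *Rgs5* at 0.13 and 0.31 CPM. The part of mural cells in the stromal *Notch3* level was not tested.

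*Jag1* (chr2:137081456-137116644, minus strand), which encodes the ligand Jagged 1, was the 1 gene of the 8 that peaked clearly in Leydig cells. It was at 52.8 CPM (44.9–61.7) and 48.7 CPM (41.0–57.5) there, from 159 and 140 UMIs. In stroma it was at 16.02 and 14.0 CPM, and the folds of Leydig cells over stroma were 3.30 (2.74–3.95) and 3.49 (2.85–4.25). Sertoli cells were lowest, at 2.62 and 2.59 CPM, and leaving out called doublets took these to 1.22 and 1.23 CPM. The receptors *Notch1* and *Notch2* ran the other way, being lowest in Leydig cells among the somatic gates. *Notch3* was low in Leydig cells too, at 0.996 and 0.696 CPM from 3 and 2 UMIs, where Sertoli cells could not be set apart from them (2.01, 0.662–9.97, in the wild type). A *Jag1* UMI was present in 50.8% and 56.6% of Leydig cells against 3.72% and 3.91% of Sertoli cells, at median depths of 14732 and 17355 UMIs against 13711 and 15847. After thinning, the shares were 21.5% and 21.1% in Leydig cells and 0.939% and 1.35% in Sertoli cells.

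How the gate limit bears on this was read by binning cells with at most 2 *Amh* UMIs by the same *Cyp11a1*, *Cyp17a1* and *Hsd3b1* sum, so the bins describe the same cells and are no separate support. Cells with 100 or more such UMIs (163 and 126 cells) had 54.3 and 51.8 CPM of *Jag1*, and cells with none had 15.1 and 14.3 CPM. The folds were 3.61 (2.99–4.33) and 3.62 (2.94–4.42). *Notch3* gave 1 UMI in the top bin of each library, or 0.370 and 0.411 CPM, against 20.8 and 22.0 CPM in the bottom bin. *Hes1*, *Heyl*, *Notch1* and *Notch2* were likewise lower in the top bin, with folds between 0.0371 and 0.272. Only 16 and 10 cells fell in the bin of 5 to 19 UMIs and 7 and 5 in that of 20 to 99, so the steroidogenic cells formed a separate population and the *Jag1* contrast does not describe a graded series.

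*Heyl* (chr4:123233556-123249875, plus strand), a repressor of the Hey family, was the myoid gene of the group. Its level was 127 CPM (119.8–133.8) in wild-type myoid cells and 117 CPM (109–125) in those of the library labelled knockout. In stroma outside the myoid and Leydig gates it was at 29.5 and 29.8 CPM, which put myoid cells 4.29 (3.94–4.69) and 3.93 (3.56–4.34) times higher. Sertoli cells had 10.9 and 11.1 CPM and Leydig cells 4.65 and 3.13 CPM. In myoid cells, 67.0% and 66.8% had a *Heyl* UMI, or 41.8% and 39.1% after thinning. Leydig cells, with the least *Heyl* of the somatic gates, gave 4.52% and 3.50%, or 1.69% and 0.704% after thinning.

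Within the stroma gate, *Heyl* was higher in cells with more *Acta2*, the smooth muscle actin gene used for the myoid gate. Over bins of 0, 1 to 4, 5 to 19, 20 to 59 and 60 or more *Acta2* UMIs, wild-type *Heyl* was 9.54, 11.9, 48.9, 127.7 and 160.1 CPM. The library labelled knockout gave 9.72, 15.6, 55.0, 119 and 123 CPM. Top over bottom bin, the folds were 16.8 (13.8–20.6) and 12.7 (10.2–15.96), in bins whose median depth went from 8911 to 12567 and from 9004 to 13405 UMIs per cell. These bins use a gene of the myoid gate and hold most of its cells, so they describe the same contrast again. The receptors differed from *Heyl*. *Notch2* gave folds of 0.924 (0.798–1.07) and 1.09 (0.926–1.28) across the same bins, *Notch3* gave 1.43 (1.11–1.83) and 1.05 (0.754–1.43), and *Notch1* gave 0.775 (0.514–1.13) and 0.582 (0.342–0.936).

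**Figure D2:**
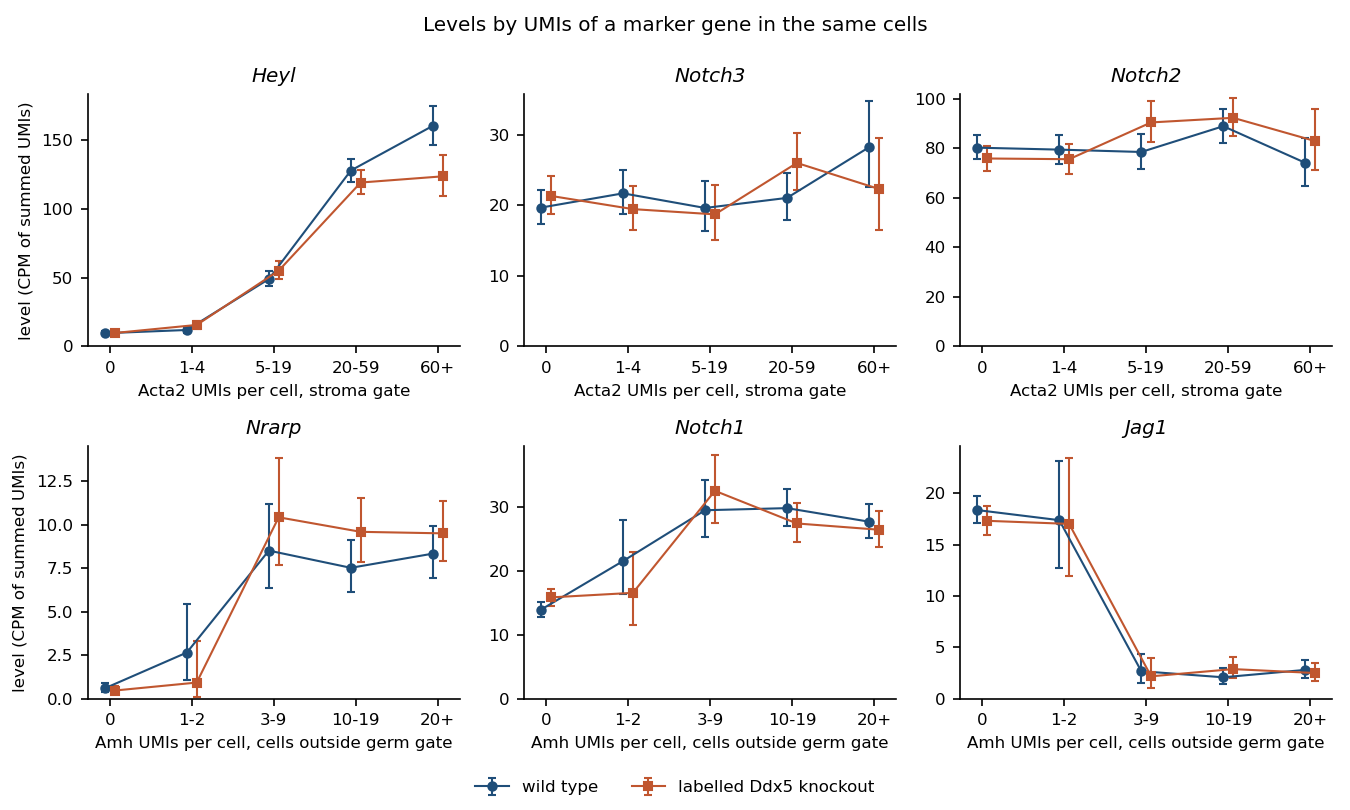
Level (CPM, vertical axes) of *Heyl*, *Notch3* and *Notch2* over bins of *Acta2* UMIs per cell in the stroma gate (top) and of *Nrarp*, *Notch1* and *Jag1* over bins of *Amh* UMIs per cell outside the germ gate (bottom), in both libraries with 95% Poisson intervals. *Heyl* goes from 9.54 to 160.1 CPM in the wild type over the *Acta2* bins, and *Jag1* drops from 18.4 to 2.80 CPM over the *Amh* bins while *Nrarp* goes from 0.591 to 8.33 CPM.

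*Nrarp* (chr2:25180758-25183339, plus strand) was highest in Sertoli cells among the somatic gates of both libraries, and was also seen in wild-type germ cells. Sertoli cells had 8.58 CPM (7.66–9.58) and 9.67 CPM (8.57–10.9), against 0.739 and 0.305 CPM in stroma, folds of 11.6 (7.53–18.8) and 31.7 (15.9–74.2). Myoid cells had 0.698 and 1.12 CPM from 7 and 8 UMIs, and Leydig cells had 1.33 and 0.696 CPM from 4 and 2 UMIs. The shares of Sertoli cells with a UMI were 11.5% and 14.4% (3.71% and 4.84% after thinning), against 0.474% and 0.366% of stroma-gate cells.

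The *Amh* count that sets the Sertoli gate was also used to bin all cells outside the germ gate, which describes the same contrast more finely. In these bins *Nrarp* was 0.591 and 0.462 CPM at 0 *Amh* UMIs, 8.50 and 10.4 CPM at 3 to 9, and 8.33 and 9.49 CPM at 20 or more. It thus reached its Sertoli level at the lowest *Amh* bin inside the gate and went no higher with more *Amh*. *Notch1* did the same, with 13.9 and 15.9 CPM at 0, 29.5 and 32.5 CPM at 3 to 9, and 27.7 and 26.5 CPM at 20 or more. *Jag1* stepped down, from 18.4 and 17.3 CPM at 0 to 2.67 and 2.17 CPM at 3 to 9 *Amh* UMIs. Cells with 1 or 2 *Amh* UMIs sat with the non-Sertoli cells for *Jag1*, at 17.4 and 17.0 CPM.

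Of the 4 target genes, *Nrarp* was the 1 with a promoter in the RefSeq sequences used here, and it is shown because its level separates Sertoli cells from stroma. The 250 bases before its start lie at chr2:25180508-25180757 on the plus strand of GRCm38.p6, with 61.2% G and C. The capitals mark CACGTG, an E-box that reads the same on both strands, at position -108 from the start.
Nrarp: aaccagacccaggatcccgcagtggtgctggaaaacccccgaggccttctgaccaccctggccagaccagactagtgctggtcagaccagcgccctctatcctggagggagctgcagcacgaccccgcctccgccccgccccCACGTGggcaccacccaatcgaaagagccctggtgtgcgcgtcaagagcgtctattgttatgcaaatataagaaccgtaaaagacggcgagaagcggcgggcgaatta

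The RBPJ core TGGGAA, searched on the other strand as TTCCCA, was not in this window, nor in the windows of the other 4 of the 8 genes with an entry, while 25.6% of 32851 promoters held it. Its longer form GTGGGAA, which contains the core, was in 6.38% of promoters and in 0 of these 5. CACGTG was searched after the core gave no match, and 7.15% of promoters held it.

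*Hes1* (chr16:30064384-30067796, plus strand), a repressor with many inputs beside Notch, was higher in myoid cells and stroma than in Sertoli and Leydig cells. Myoid cells had 56.7 CPM (52.1–61.6) and 74.1 CPM (68.0–80.7), and stroma had 44.9 and 62.0 CPM. Sertoli cells had 7.98 CPM (7.10–8.95) and 11.8 CPM (10.6–13.1), so that stroma stood 5.62 and 5.26 times above them. Between Sertoli cells on one side and stroma and myoid cells on the other, *Hes1* and *Nrarp* had opposite orders, although both were low in Leydig cells and, as given below, highest in wild-type germ cells. Leydig cells had 5.64 and 7.31 CPM of *Hes1*. The step from stroma to myoid cells was 1.26 (1.14–1.39) and 1.20 (1.08–1.32), far smaller than that of *Heyl*.

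*Hey1* (chr3:8663359-8667256, minus strand), a close relative of *Heyl*, was low in every somatic gate. It was at 4.65 and 5.91 CPM in Leydig cells, 4.47 and 3.66 CPM in stroma, 1.79 and 1.83 CPM in myoid cells and 0.947 and 1.14 CPM in Sertoli cells. Leydig cells and stroma could not be told apart, but stroma exceeded Sertoli cells by 4.72 and 3.21 times. *Hey1* and *Heyl* thus differed in where they were high: myoid cells had less *Hey1* than stroma in both libraries, with folds of stroma over myoid cells of 2.49 (1.52–4.33) and 2.01 (1.12–3.90).

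Wild-type germ cells carried *Nrarp*, *Hes1* and *Hey1* at their highest levels of the 5 gates. *Nrarp* was at 20.8 CPM (16.7–25.6) from 90 UMIs, 2.43 times (1.90–3.08) its Sertoli level, and 45.6% of the 125 cells had a UMI, at a median depth of 34394 UMIs. After thinning the share was 13.0%, against 0.199% of stroma-gate cells. *Hes1* was at 84.4 CPM (76.0–93.6), 1.88 times its level in stroma. *Hey1* was at 11.3 CPM from 49 UMIs, and its fold over stroma was 2.54 (1.79–3.55). Because Sertoli markers were abundant in this gate, the same values were read in the 86 wild-type germ cells outside the Sertoli gate, where *Nrarp* was at 21.0 CPM and *Hes1* at 98.7 CPM while the Sertoli markers summed to 151 CPM. Neither gene was lower without the shared barcodes. Of all germ-gate cells, 32.1% also passed the endothelial-like gate. With vascular-like and macrophage-like cells left out, 85 wild-type germ cells had 19.8 CPM of *Nrarp*, 75.6 CPM of *Hes1* and 11.2 CPM of *Hey1*. *Notch1* and *Notch2* were at 20.4 and 28.0 CPM in wild-type germ cells, and *Jag1* was at 7.17 CPM from 31 UMIs.

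In the 12 germ cells of the library labelled knockout, *Nrarp* gave 0 UMIs. For a count of 0, a floor of 3 UMIs was used, which lies below the upper limit of the exact Poisson interval. This floor is 6.48 CPM, against 20.8 CPM in the wild type. With the counting error of both libraries taken in, the ratio could be as high as 0.390, or 0.392 without germ cells in the Sertoli gate. The ratios of the library labelled knockout over the wild type were 0.588 (0.368–0.896) for *Hes1*, 0.318 (0.0644–0.960) for *Notch1* and 0.308 (0.0827–0.810) for *Notch2*, from 23, 3 and 4 UMIs. *Hey1* was at 10.8 CPM from 5 UMIs, a ratio of 0.952 (0.296–2.38), and at 3.38 CPM in the 8 cells that passed no other gate. The median of all 12394 genes in this gate was itself -0.42 on the log2(CPM + 10) scale, against differences of -1.62 for *Nrarp*, -1.03 for *Notch2*, -0.88 for *Notch1* and -0.66 for *Hes1*. Sertoli markers differed between the 2 germ gates as given above. Outside the Sertoli gate, macrophage markers summed to 276 and 71.2 CPM, pericyte markers to 195 and 51.8 CPM and cycling markers to 1167 and 326 CPM, and their part in these differences was not tested. Without vascular-like and macrophage-like cells, 7 germ cells of the library labelled knockout remained, with 34.3 CPM of *Hes1*, 4.90 CPM of *Hey1* and 0 UMIs of *Nrarp*. Without the barcodes shared with the Sertoli gate, the ratios of *Notch1* (0.374, 0.0745–1.16) and *Notch2* (0.419, 0.110–1.13) held 1, and the *Hes1* ratio was 0.503 (0.314–0.771).

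The libraries of both genotypes were then compared within each somatic gate. A 1.5-fold difference on the log2(CPM + 10) scale was passed by 0 of 8 genes in Sertoli cells, 0 of 6 in Leydig cells, 0 of 7 in myoid cells and 0 of 8 in the stroma gate. *Notch3* and *Nrarp* in Leydig cells and *Nrarp* in myoid cells had under 20 UMIs over both libraries and were not counted. On this scale a gene under 5 CPM in the wild type cannot pass downward, which holds for *Notch3*, *Jag1* and *Hey1* in Sertoli cells, *Notch1*, *Hey1* and *Heyl* in Leydig cells, *Hey1* in myoid cells, and *Hey1* and *Nrarp* in the stroma gate. Over all genes with at least 20 UMIs, 0.42% did so in Sertoli cells, 1.1% in Leydig cells, 0.362% in myoid cells and 0.181% in the stroma gate. The median log2 difference of the Notch genes was 0.02 in Sertoli cells, 0.07 in Leydig cells, 0.09 in myoid cells and -0.02 in the stroma gate, beside -0.01, 0.00, 0.00 and 0.00 for all genes.

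Counting intervals of the ratio lay to one side of 1 for 2 of 8 genes in Sertoli cells, 0 of 6 in Leydig cells, 1 of 7 in myoid cells and 3 of 8 in the stroma gate. The shares over all genes were 32.4%, 11.3%, 14.9% and 26.7%, so these counts were near those of any gene. Since a counting interval holds no spread between animals or captures, such a ratio describes 2 libraries and not the genotypes. In Sertoli cells, *Notch2* was lower in the library labelled knockout (0.866, 0.811–0.923). *Notch1* was higher in the stroma gate (1.15, 1.02–1.30), and *Heyl* was lower in the stroma gate (0.909, 0.850–0.972) but not in stroma outside the myoid and Leydig gates (1.01, 0.915–1.11). Myoid cells made up 12.1% of wild-type cells and 10.6% of the other library. *Jag1* in Leydig cells gave 0.922 (0.730–1.17) and *Nrarp* in Sertoli cells gave 1.13 (0.957–1.33). *Nrarp* in stroma outside the myoid and Leydig gates gave 0.413 (0.159–0.963), from 22 and 8 UMIs.

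**Figure D3:**
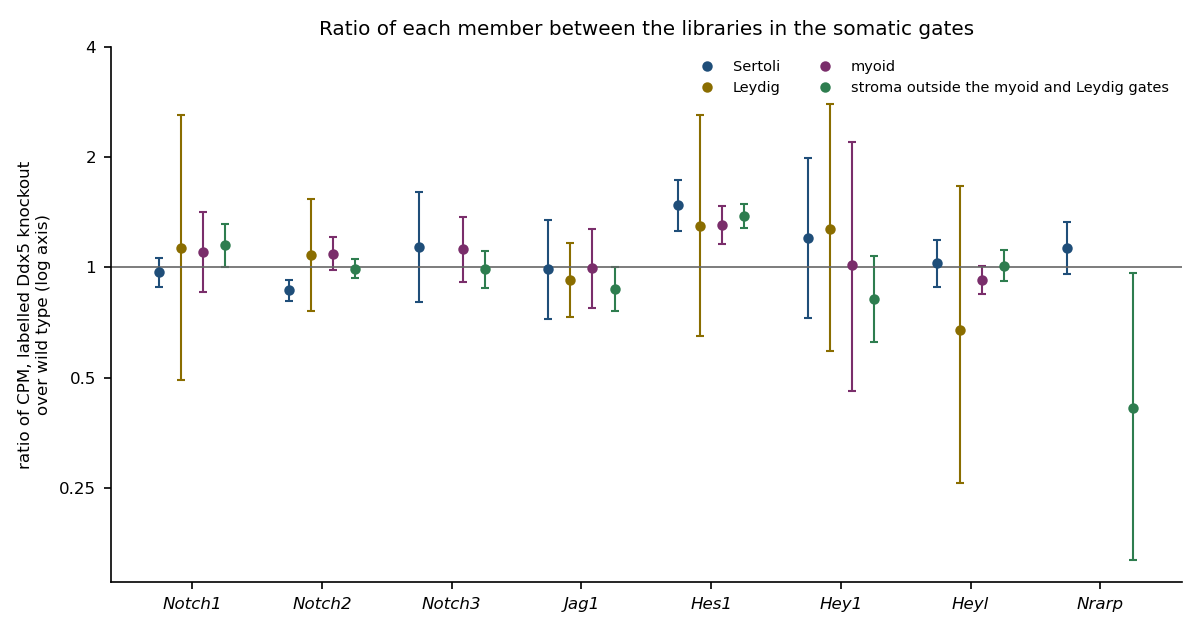
Ratio of CPM in the library labelled *Ddx5* knockout over the wild type (vertical, log axis) for the Notch genes (horizontal) in Sertoli, Leydig, myoid and stromal cells (stroma outside the myoid and Leydig gates), with 95% intervals that cover counting error only. Genes with under 20 UMIs in a gate are not drawn; *Hes1* lies above 1 in Sertoli cells (1.48), myoid cells (1.31) and stroma (1.38), and most others lie near 1.

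*Hes1* was the exception, being higher in the library labelled knockout in 3 somatic gates. Its ratio was 1.48 (1.26–1.73) in Sertoli cells, 1.31 (1.16–1.47) in myoid cells and 1.38 (1.28–1.49) in stroma outside the myoid and Leydig gates. In Leydig cells it was 1.29 (0.650–2.61), from 17 and 21 UMIs. Over 8 settings the Leydig ratio ran from 0.526 to 1.30, on both sides of 1, with 0 intervals above 1. Of 13436 genes with enough UMIs, 1.85% had an interval above 1 in all 3 of Sertoli, myoid and stromal cells, and *Hes1* was the 1 Notch gene of this kind. The share of cells with a *Hes1* UMI was 8.16% and 15.0% in Sertoli cells and 42.7% and 52.3% in myoid cells, or after thinning 2.86% and 5.46% and 21.3% and 27.9%. In Leydig cells, the lowest gate, it was 9.04% and 11.2%, or 2.26% and 3.52% after thinning, so the wild-type Sertoli share lay at about this background. Leaving out vascular-like and macrophage-like cells left the stroma-gate levels at 46.9 and 64.1 CPM. In germ cells the ratio was below 1, as given above, and no difference between gates was tested.

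The Sertoli value of *Hes1* moved with barcode purity. Among Sertoli cells that passed no other gate, *Hes1* was at 5.02 CPM in the wild type and 11.4 CPM in the library labelled knockout. Without called doublets it was at 6.07 and 7.97 CPM, and the ratio over 8 settings ran from 1.31 to 2.26 with every interval above 1. Markers of other cells also differed in the Sertoli gate. The 6 stroma markers summed to 438 CPM in the wild type and 657 CPM in the library labelled knockout, with *Dcn* at 192 and 333 CPM, and germ markers summed to 77.2 and 0.795 CPM. *Hes1* is itself more than 5 times higher in stroma, and the part of either marker list in the Sertoli ratio was not tested. In myoid cells the ratio ran from 0.864 to 1.38 with 7 of 8 intervals above 1. The low end came from the 54 and 25 myoid cells that passed no other gate.

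Since *Hes1* also answers quickly to many stimuli, 12 immediate early genes, a list chosen after the *Hes1* values were seen, were read beside it. In the somatic gates they mostly ran opposite to *Hes1*. Their counting intervals lay below 1 for 12 of 12 in Sertoli cells, 9 of 12 in Leydig cells, 11 of 12 in myoid cells and 12 of 12 in the stroma gate, beside the shares of all genes with an interval to one side given above. *Nr4a1* in Leydig cells was higher (ratio 2.30). In germ cells they ran the same way as *Hes1*, with 9 of 10 lower and a median of -1.41, in a gate where the median of all genes was -0.42. Their median log2 differences in the somatic gates were -0.39 in Sertoli cells, -0.39 in Leydig cells, -0.57 in myoid cells and -0.76 in the stroma gate. *Fos*, an early gene of the AP-1 family, was at 119 CPM in the wild-type stroma gate and 49.0 CPM in that of the library labelled knockout. Their part in the *Hes1* difference was not tested.

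**Figure D4:**
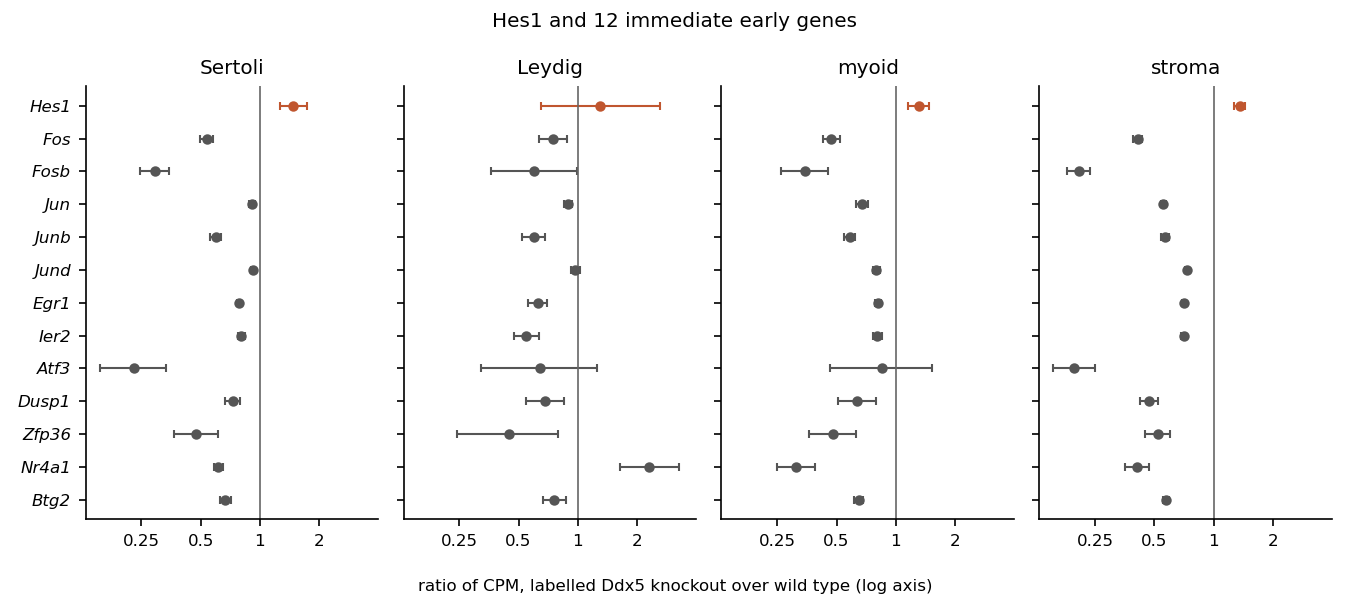
Ratio of CPM in the library labelled *Ddx5* knockout over the wild type (horizontal, log axis) for *Hes1* and 12 immediate early genes in the Sertoli, Leydig, myoid and stroma gates, with 95% counting intervals. *Hes1* lies above 1 in the Sertoli, myoid and stroma gates (1.48, 1.31 and 1.36). Its Leydig ratio (1.29) has an interval that holds 1 and ran from 0.526 to 1.30 over 8 settings. The immediate early genes lie below 1 apart from *Nr4a1* in Leydig cells (2.30), with some Leydig and myoid intervals that hold 1.

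Cycling was compared by how many of 6 proliferation markers a cell carried. In Sertoli cells with 0, 1 or 2, and 3 or more of them, wild-type *Nrarp* was 5.92, 6.44 and 10.5 CPM and wild-type *Hes1* was 5.02, 6.44 and 9.76 CPM. The library labelled knockout gave 9.95, 6.94 and 10.7 CPM for *Nrarp* and 11.2, 11.5 and 12.1 CPM for *Hes1*, and no difference between the libraries was tested. The groups also differed in depth, with median UMIs per cell of 11691, 12518 and 18140.5 in the wild type and 13384, 14151 and 19770.5 in the library labelled knockout, and a deeper cell shows more markers at the same level. In myoid cells, *Heyl* was 142, 129 and 112 CPM in the wild type and 129, 129 and 95.8 CPM in the library labelled knockout, lowest in the most cycling cells of both.

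The rest of the pathway was read from a list of 56 other genes by role. With at least 20 UMIs, 51 of them were compared in Sertoli cells, 44 in Leydig cells, 48 in myoid cells and 52 in the stroma gate, and 0 passed a 1.5-fold difference in any of these gates. Their median log2 differences were -0.03, 0.01, 0.03 and 0.01. The extremes were *Ccnd1* (-0.51) and *Dlk1* (0.25) in Sertoli cells, *Id1* (-0.48) and *Tle3* (0.42) in Leydig cells, *Aph1b* (-0.41) and *Numbl* (0.28) in myoid cells, and *Myc* (-0.23) and *Cir1* (0.28) in the stroma gate.

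Beside *Jag1*, few canonical ligands were seen. *Dll1* gave 21 and 25 UMIs over all kept cells, *Dll3* gave 143 and 104, and *Dll4* gave 8 and 9. *Jag2* was at 14.1 CPM in wild-type germ cells from 61 UMIs, was not seen in the germ cells of the library labelled knockout, and reached at most 0.68 CPM in the somatic gates. *Dll4*, the tip cell ligand of vessels, was at 2.44 CPM and 22.1 CPM (7.17–51.5) in pericyte-like cells, from 1 and 5 UMIs. The receptor *Notch4*, known from endothelium, gave 157 and 133 UMIs in all.

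*Dlk1*, a ligand-like protein without the domain that activates Notch, was the abundant ligand gene of the list. It was at 1967 and 1680 CPM in the stroma gate, 436 and 337 CPM in myoid cells, 164 and 197 CPM in Sertoli cells and 113 and 114 CPM in Leydig cells. The ratio was 0.854 (0.845–0.863) in the stroma gate and 1.20 (1.16–1.24) in Sertoli cells, so the libraries differed in opposite directions in these gates, a contrast that was not tested. *Dlk1* is one of the stroma markers, whose sum in the Sertoli gate was higher in the library labelled knockout as given above.

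Other list genes lay with *Nrarp* and *Notch1* in Sertoli cells. *Dtx1*, which encodes the E3 ligase Deltex 1, was at 100.7 and 97.5 CPM there against 17.2 and 17.6 CPM in the stroma gate. *Hes5*, a classic Notch target in the nervous system, was at 8.58 and 6.25 CPM against 0.103 and 0.121 CPM. *Lfng*, the fringe glycosyltransferase that tunes the ligand preference of receptors, was at 8.52 and 5.46 CPM in Sertoli cells. The Sertoli ratios of *Hes5* and *Lfng* were 0.729 (0.604–0.878) and 0.640 (0.526–0.778), lower in the library labelled knockout. That of *Nrarp* held 1, and no difference between genes was tested. Of the 51 list genes compared in Sertoli cells, 6 had an interval above 1 and 11 had one below. Over all genes in this gate, 32.4% had an interval to one side of 1. In germ cells, *Rbpj*, the DNA-binding partner of all receptors, was at 55.1 CPM in the wild type and 10.8 CPM in the library labelled knockout, from 238 and 5 UMIs. Its ratio was 0.196 (0.0631–0.464), in a gate whose median gene was itself at -0.42 on the log2(CPM + 10) scale. Of 47 list genes compared in the germ gate, 18 passed 1.5-fold lower on this scale and 3 higher. Their intervals lay below 1 for 14 and above 1 for 5, and the share over all genes was not counted in this gate.

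Genes most like each of the 8 in their levels were ranked by Pearson's r of log2(CPM + 10) over 16 sums (8 gates, endothelial-like, pericyte-like and macrophage-like gates included, in 2 libraries), among 6712 genes, where gates share cells. Of the 72 endothelial-like cells, 61.1% were also germ-gate cells, and in the wild type their germ markers summed to 2116 CPM against 315 CPM for endothelial markers. *Notch3* lay nearest to *Pdgfrb* (0.98), *Cspg4* (0.96) and *Btbd3* (0.95). *Heyl* lay nearest to *Tmem204*, *Tmem100* and *Mylk*, the myosin light chain kinase gene (each 0.98). *Jag1* lay nearest to *Fam129a* (0.94), *Nagk* and *Fgfr2* (each 0.92).

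For the remaining genes the nearest profiles were broader. *Notch2* was nearest to *Tlnrd1* (0.97), *Hsp90b1* (0.96) and *Rps3* (0.95), *Hes1* to *Dnajc10* (0.94), *Aig1* (0.93) and *Luzp1* (0.92), *Hey1* to *Ttc33* (0.92), *Gars* and *Hccs* (each 0.89), and *Nrarp* to *Ciapin1*, *Sin3a* and *Rnf220* (each 0.92). *Notch1* had no close match, with *Frmd4a* at 0.81, *Pdzd2* at 0.79 and *Twistnb* at 0.78.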

How the data were processed

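The authors deposited 1 table of UMI counts, 30451 genes by 12186 barcodes, not normalized, made with Cell Ranger 3.1.0 and Seurat 3.1.5 on GRCm38 per the submitters' processing notes, whose reference also held GFP and CRE. Totals were 84263163 UMIs in the wild type (6763 barcodes) and 67558106 in the library labelled *Ddx5* knockout (5423 barcodes). The suffix was 3 for the wild type and 4 for the library labelled knockout. The labels do not say whether sequencing libraries came from separate animals.

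UMIs were summed per gate and library and divided by the total UMIs of the same cells (CPM). Intervals were exact Poisson for CPM, Clopper-Pearson for shares of cells and exact conditional binomial for ratios. Differences were log2 ratios of CPM + 10. Shares were read beside those in the gates of lowest level, as a free-RNA background. Scrublet in scanpy 1.11.5 (expected rate 0.06) called 303 wild-type cells (4.79%) and 308 (6.22%) doublets, which were kept in the main values. Other tools were Python 3.11.15, NumPy 2.4.6, SciPy 1.17.1, pandas 2.3.3 and matplotlib 3.10.9. The ratio intervals were tested on simulated data. Promoters came from RefSeq (GRCm38.p6), where 5 of the 8 genes had an entry.

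The genes, gates and lists were chosen with earlier results of these data known, and the immediate early list after the *Hes1* values. Named genes were all 8 Notch genes, the list genes of largest difference per gate, any ligand or receptor at 20 CPM or more, and the 3 nearest genes by r. List genes named beside these (*Jag2*, *Dll1*, *Dll3*, *Notch4*, *Dtx1*, *Hes5*, *Lfng*, *Rbpj*, *Fos*) were chosen after their values were seen. Of 11279 kept cells, 411 passed none of the 5 gates and 1356 passed 2 or more. In the stroma gate the endothelial markers summed to 157 and 155 CPM, with *Cdh5* at 124 and 127 CPM and *Pecam1* at 1.0 and 1.2 CPM, and the macrophage markers to 59.2 and 135 CPM. Alternatives were other cell filters, doubled gate limits, doublets left out, exactly 1 gate, other scalings and pseudocounts of 1 and 50 CPM.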

Additional observations from a re-analysis of the deposited data

Results flagged for a closer look

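*Hes1* lay on opposite sides of 1 in different gates of the same 2 libraries. Its ratio of the library labelled knockout over the wild type was 1.48 in Sertoli cells, 1.31 in myoid cells and 1.36 in the stroma gate, with counting intervals above 1, and 0.588 in the germ gate, with an interval below 1. On the log2(CPM + 10) scale the median of all genes in the germ gate was -0.42, and *Hes1* lay -0.24 from it. The difference between gates was not tested, since each genotype is 1 library and the germ gate of the library labelled knockout holds 12 cells. *Notch1* also lay on both sides of 1, at 1.15 in the stroma gate and 0.318 in the germ gate from 3 UMIs. Without germ cells in the Sertoli gate its germ ratio was 0.374 (0.0745–1.16), which held 1, and this difference was not tested either.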

How the results depend on the processing

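No paired analysis was possible because the barcodes carry a genotype suffix only, while the labels number 8 sequencing libraries in each genotype, and for the same reason no library could be left out in turn. The count of Notch genes past 1.5-fold, taken with a pseudocount added to each CPM, stayed at 0 in every somatic gate under every alternative run. The pseudocount shrinks the ratios of genes at low levels. With exactly 1 gate the Sertoli *Hes1* ratio without it was 2.26 (1.87–2.74), from 5.02 and 11.4 CPM. The 40 medians recomputed moved by less than the counting error of their middle genes. The pathway list count moved from 0 to 1 in Leydig cells and 7 in myoid cells with barcodes passing exactly 1 gate (54 and 25 myoid cells), to 1 in Leydig cells without called doublets, to 1 in Sertoli cells with CPM outside ribosomal and mitochondrial genes, and to 1, 4 and 1 in Sertoli, Leydig and myoid cells with a pseudocount of 1 CPM. With exactly 1 gate the *Hes1* ratio in myoid cells turned to 0.864 (0.443–1.60), the *Heyl* ratio in stroma to 1.002, and 1 gene (*Heyl*) still stood at least 2-fold above the next gate. With a pseudocount of 50 CPM 0 did. Stroma without myoid and Leydig cells gave a *Heyl* ratio of 1.01. Of the recomputed levels, 111 left their counting interval and 609 did not, but 49 of the 111 came from CPM outside ribosomal and mitochondrial genes, which raises the CPM of every gene by construction. Among the others were *Notch3* and *Jag1* in Sertoli cells without called doublets, and *Notch1* in wild-type Leydig cells at 1.94 CPM without called doublets. Of the shares thinned to 5000 UMIs, 76 left their binomial interval and 4 did not. Depth limits *Nrarp*, *Hey1* and *Notch3* in Leydig cells and every value in the 12 germ cells of the library labelled knockout.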
